A study of Mus musculus with 8 samples.

Results

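The genes of cytosolic translation initiation and elongation were followed in mouse liver, in whole-tissue RNA taken after adenoviral hairpins against Dnajb9 or Rictor. Members were chosen by name: every gene entry that begins with Eif1 to Eif6 or with Eef1 or Eef2, without the eIF2 kinases (Eif2ak genes) and without entries marked as pseudogenes. The eIF4E-binding proteins (Eif4ebp genes) were kept. The rule gave 59 of the 24062 gene entries in the count tables, and 55 of them had enough counts to be tested.

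The animals were lean, wild-type C57BL/6 mice. They were injected with adenovirus at 0.1 OD, and their livers were taken after 1 week, following a food withdrawal of 6 h. At an age of 3 months, the virus was either the control lacZ1 or a hairpin virus against Dnajb9 (shDnajb9), the gene of ERdj4, a co-chaperone of the endoplasmic reticulum. At an age of 4 months, it was either the control lacZ2 or a hairpin virus against Rictor (shRictor), a subunit that defines mTOR complex 2. Each of the 4 groups had 2 libraries of Ribo-zero-depleted total RNA. Whether the control viruses carried the lacZ gene or a hairpin is not stated. Nor do the labels name the animal behind each library, so p-values measure only the spread between libraries, which may be technical. In such bulk tissue, fewer cells of a type and less RNA per cell cannot be told apart.

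Initiation factors bring the small ribosomal subunit, the initiator tRNA and the capped mRNA together. The eIF2 complex carries the tRNA and is recharged by eIF2B, eIF3 is the large scaffold on the small subunit, and eIF4F, made of the cap-binding eIF4E, the helicase eIF4A and the scaffold eIF4G, opens the mRNA. The eIF4E-binding proteins compete with eIF4G for eIF4E until mTOR complex 1 phosphorylates them. In elongation, eEF1A delivers aminoacyl-tRNA, the eEF1B subunits recharge it, and eEF2 moves the ribosome along, so the liver, which makes most plasma proteins, depends heavily on this machinery.

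Between 6426164 and 11383532 counts per library were assigned to genes, and the members took 0.954% to 1.25% of them. The targeted genes were lower in their own groups without passing the test: Dnajb9 had a log2 fold change of -0.70 (adjusted p = 0.056) and Rictor one of -0.52 (adjusted p = 0.231, both by edgeR's quasi-likelihood test). Other differences between libraries went with the hairpins. Summed CPM (a gene's counts relative to the size of its library, with sizes scaled by TMM, the trimmed mean of M-values) of 12 hepatocyte markers ranged from 26100 to 61100 in the lacZ libraries and from 72500 to 83200 in the hairpin libraries, and that of 10 stellate cell markers from 584 to 703 and from 340 to 452. Counts placed at more than 1 position made up 22.9% to 24.9% of reads in the lacZ libraries, 41.3% and 42.0% in shDnajb9, and 32.7% and 26.7% in shRictor. Replicate 1 of shDnajb9 and replicate 1 of lacZ2 stood apart, with Rpph1 (the RNA of RNase P) at 63400 and 33300 CPM against 9790 to 22200 in the other 6 libraries. The lowest Rictor value was also in replicate 1 of shDnajb9, at 33.3 CPM. It was 63.4 in replicate 2 of shDnajb9, and 40.1 and 42.0 in shRictor. The part of these differences in the results below was not tested.

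The members were not equally abundant. Summed CPM of all members was 9910 and 11100 for lacZ1 against 12900 and 12200 for shDnajb9. For lacZ2 it was 9360 and 11100, against 12900 and 12800 for shRictor. The hairpin libraries were all above the lacZ libraries on this scale. As a share of all gene counts, without TMM, the members took 0.954% to 1.19% in the hairpin libraries and 1.14% to 1.25% in the lacZ libraries, so the direction depends on the scaling. Eef1a1 and Eef2 alone made up 44.2% to 55.2% of the member counts. Without those genes the sums ranged from 5220 to 5720 in the lacZ libraries and from 5770 to 6450 in the hairpin libraries. Compared per kilobase of exon, the mean level was 1510 CPM for Eef1a1 and 612 for Eef2, followed by 114 for Eif5a, 77.0 for Eif3h, 69.2 for Eef1g, 68.4 for Eif4g1 and 66.6 for Eif4a1. The lowest tested members on the same per-kilobase scale were Eef2k (1.65), Eif2b3 (1.59) and Eif5a2 (0.336). The length joins all exons of a gene, and reads placed at several positions were not counted, so this order is approximate.

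The 4 untested members were Eef1a2, Eif3j1, Eif3j2 and Eif4e1b. Eif3j1, Eif3j2 and Eif4e1b were listed at 0 in all 8 libraries. Eif3j1 and Eif3j2 are near copies of each other, with 50.9% and 91.8% of their 50-base stretches also present in other genes. Eef1a2 is the eEF1A form of muscle and nerve. It had 18 counts in replicate 1 of lacZ2, 2 in replicate 2 of lacZ2, and 0 or 1 in the other 6 libraries. Skeletal muscle markers summed to 1.05 CPM in that library and to 0.293 to 1.33 CPM over all 8, with Myh1, Myh2 and Ckm at 0 in each.

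Few members passed the test after either hairpin. After the Dnajb9 hairpin 5 of 55 tested members, 9.09%, were called at an adjusted p under 0.05, against 24.2% of all 13767 genes tested. Eif4ebp3, Eif3m, Eif3i and Eef1d rose and Eif4g3 fell (background 11.6% up and 12.6% down). After the Rictor hairpin 2 of 55, 3.64%, were called, Eif4ebp3 and Eif4ebp2, both upward, against 18.2% of all genes (7.31% up and 10.9% down). Without replicate 1 of lacZ1, without replicate 1 of shDnajb9, or without both libraries that stood apart, Eif4ebp3 alone was called after the Dnajb9 hairpin, while 7.07%, 9.77% and 12% of all genes were. Without replicate 2 of shDnajb9 8 members rose and 1 fell, and 29.2% of all genes were called. The median size of the log2 fold change, regardless of sign, was 0.37 in the members against 0.54 in all genes after the Dnajb9 hairpin, and 0.22 against 0.42 after the Rictor hairpin. The signed medians were 0.17 for members and -0.05 for all genes in the first comparison, and 0.01 and -0.02 in the second. Total-count scaling in place of TMM shifted the median of all genes to -0.46 and -0.42. The members' median then lay 0.21 and 0.05 above that of all genes, against 0.22 and 0.02 with TMM. With that scaling the calls were 1 up and 7 down after the Dnajb9 hairpin, and 1 up and 5 down after the Rictor hairpin, with Eif4ebp3 as the member that rose in each. That was 14.5% and 10.9% of members, against 28.8% and 23.6% of all genes with the same scaling.

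**Figure D1:**
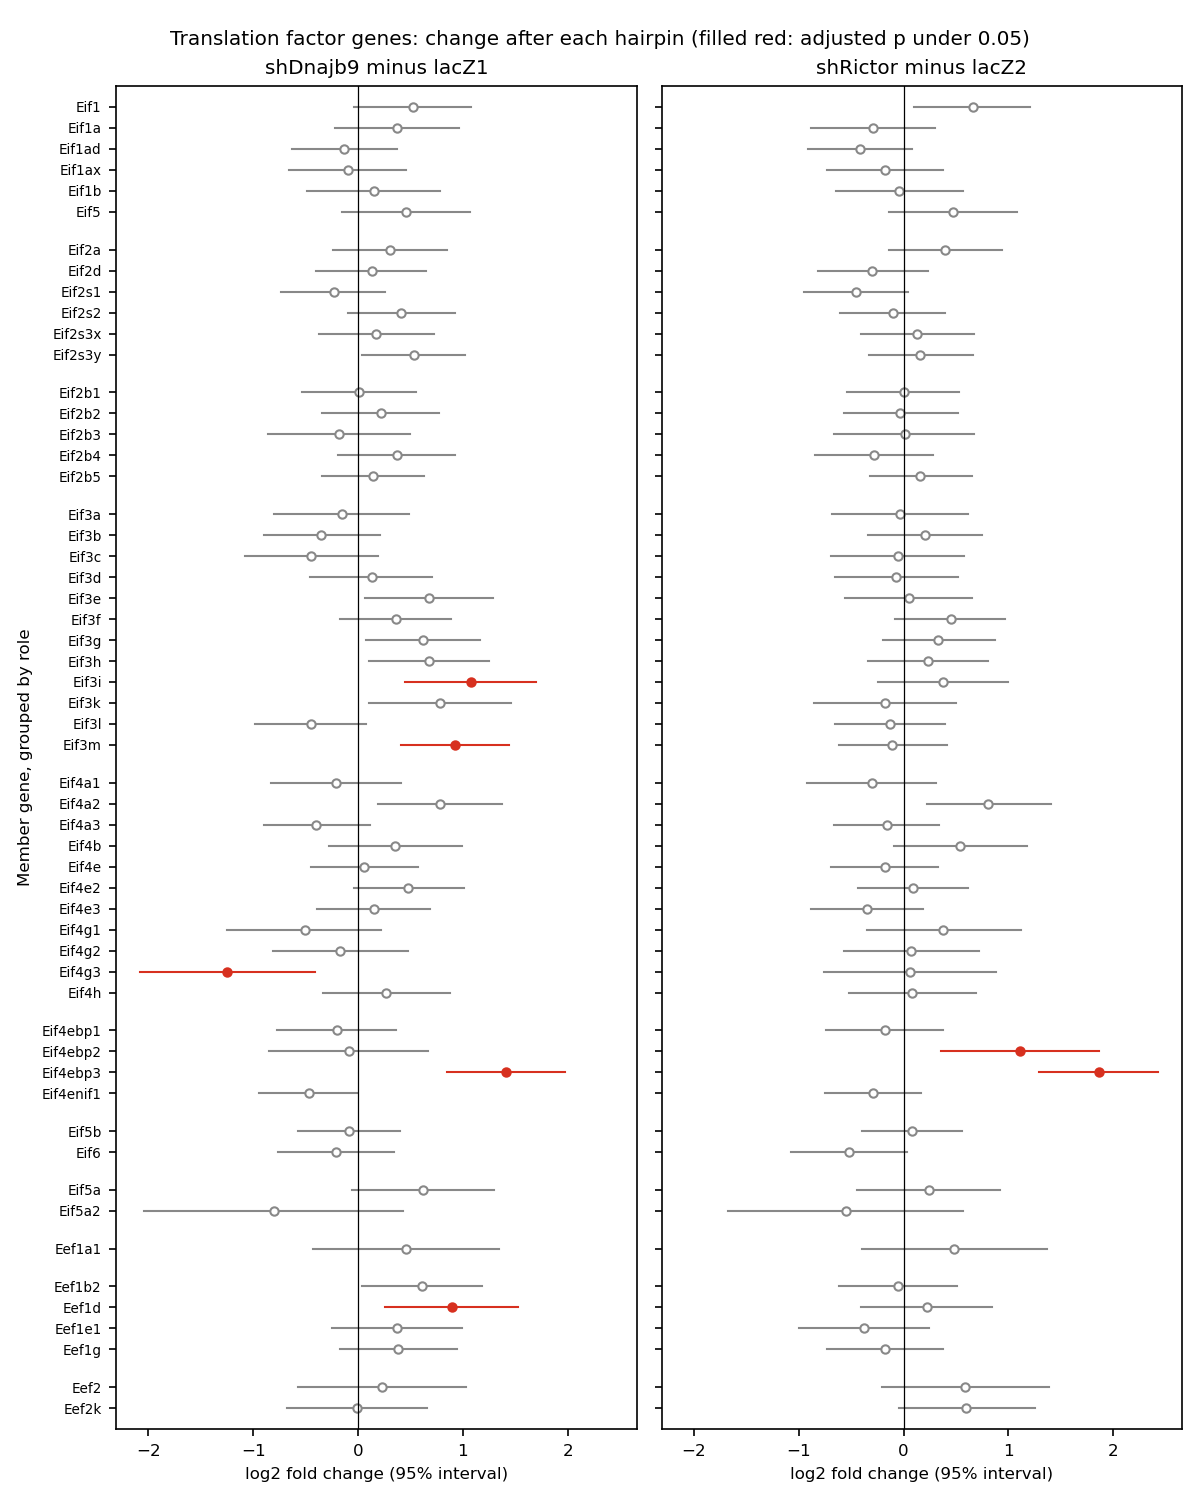
Log2 fold change of the 55 tested members (points) with 95% intervals (lines), left for shDnajb9 minus lacZ1 and right for shRictor minus lacZ2, grouped by role from start site scanning at the top to elongation at the bottom. Filled red points passed an adjusted p under 0.05 (5 on the left, 2 on the right), and Eif4ebp3 is red on both sides.

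A missed threshold did not always leave room for a large change. Of the 50 members not called after the Dnajb9 hairpin, 34 had a 95% interval of the fold change that stayed within 2-fold in both directions. Of the 53 not called after the Rictor hairpin, 41 did. The libraries of hairpin and control did not overlap for 32 members (58.2%, against 67.5% of all genes) in the first comparison and for 28 (50.9%, against 60.4%) in the second. Between the control groups, which also differ in age, no member was called (0% of all genes either). None had an unadjusted p under 0.05 by edgeR, against 1.23% of all genes. DESeq2 and limma-voom called 0 there as well, and 52 of 55 intervals stayed within 2-fold.

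Among the eIF4E-binding proteins, which hold back cap-dependent initiation, Eif4ebp3 rose after both hairpins and Eif4ebp2 after the Rictor hairpin. Eif4ebp3 measured 8.86 and 11.1 CPM with lacZ1, against 23.3 and 29.3 with shDnajb9. It measured 6.28 and 7.36 CPM with lacZ2, against 28.1 and 21.7 with shRictor. All 4 hairpin libraries lay above all 4 lacZ libraries. The log2 fold change was 1.41 (SE 0.259, n = 2 per group, adjusted p = 0.00259), or 2.66-fold, after the Dnajb9 hairpin and 1.86 (SE 0.264, n = 2 per group, adjusted p = 0.000567), or 3.63-fold, after the Rictor hairpin, by edgeR. The difference between these effects was 0.45 and did not pass the test (adjusted p = 0.653). Of all genes tested, 4.16% rose in both comparisons. The call held under each of the 19 alternatives of either comparison, with log2 fold changes from 1.00 to 1.57 and from 1.47 to 2.04.

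Eif4ebp3 is a short gene of 744 exonic bases, and 67.3% of them overlap AC115631.1, another gene model on the same strand. The next gene upstream on that strand is Ankhd1, which is known for read-through transcripts into the binding-protein gene. Ankhd1 did not pass the test in either comparison. It had 127 and 114 CPM in lacZ1 and overlapping values of 106 and 125 in shDnajb9 (log2 fold change -0.07, adjusted p = 0.873). In the other comparison Ankhd1 measured 95.1 and 132 CPM with lacZ2, against 142 and 167 with shRictor (log2 fold change 0.44, adjusted p = 0.271). How the counting treated reads in the overlap is not given in the sources used here, so the Eif4ebp3 count is uncertain in that respect.

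Eif4ebp2, another inhibitor of eIF4E (chromosome 10, 61428491 to 61452661, minus strand, mm10), measured 32.7 and 15.7 CPM with lacZ2, against 37.8 and 66.0 with shRictor. The groups did not overlap, but replicate 1 of lacZ2 lay close to replicate 1 of shRictor. The log2 fold change was 1.11 (SE 0.347, adjusted p = 0.0425). The call was lost in 8 of 19 alternatives, among them those without replicate 2 of lacZ2 (0.69, adjusted p = 0.252) and without replicate 2 of shRictor (0.66, adjusted p = 0.314). In lacZ1 Eif4ebp2 was at 30.1 and 23.0 CPM and in shDnajb9 at 23.9 and 25.9, with overlap (log2 fold change -0.09, adjusted p = 0.87). The difference between the hairpin effects on Eif4ebp2 was 1.20 and did not pass the test (adjusted p = 0.438).

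Eif4ebp1, the best known of the binding proteins, did not pass in either comparison. The lacZ1 libraries had 78.1 and 102 CPM and the shDnajb9 libraries 91.4 and 65.5. The lacZ2 libraries had 94.3 and 71.3 CPM and the shRictor libraries 77.3 and 68.9. The log2 fold changes were -0.20 (adjusted p = 0.591) and -0.18 (adjusted p = 0.689), and hairpin and control libraries overlapped in both. The count of Eif4ebp3 per count of Eif4ebp1 in the same library, which no scaling factor touches, was 0.0666 to 0.114 in the lacZ libraries and 0.255 to 0.448 in the hairpin libraries. Eif4enif1, the eIF4E transporter, had log2 fold changes of -0.47 (adjusted p = 0.122) and -0.29 (adjusted p = 0.393).

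**Figure D2:**
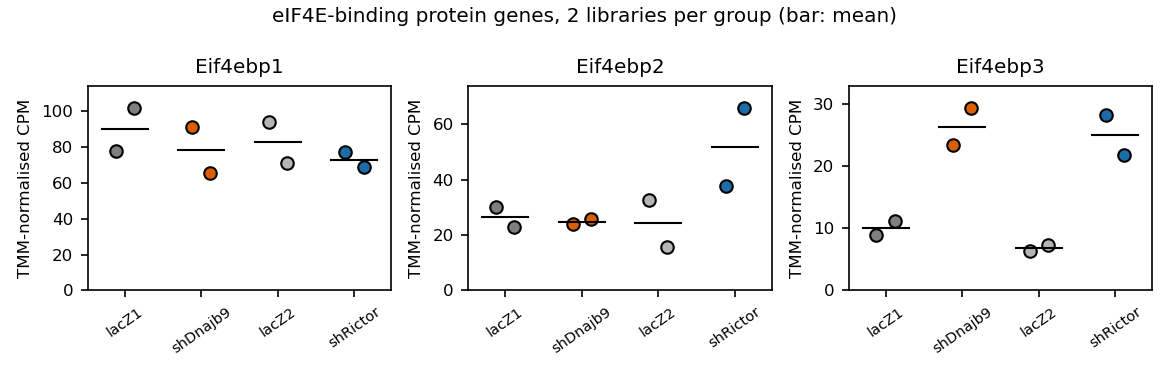
TMM-normalised CPM of the eIF4E-binding protein genes in each library (points) with the group mean (bar), on axes that start at 0. Eif4ebp3 is at 6.28 to 11.1 in the lacZ libraries and at 21.7 to 29.3 in the hairpin libraries, Eif4ebp2 is highest in shRictor, and Eif4ebp1 overlaps between groups.

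Within eIF4F, the count ratio of the eIF4A helicase genes, Eif4a2 to Eif4a1, was higher in each hairpin library than in any lacZ library. The ratio was not tested, and neither gene passed the test by edgeR. Eif4a2 (chromosome 16, 23107444 to 23114136, plus strand) measured 139 and 166 CPM with lacZ1, against 250 and 273 with shDnajb9. It measured 130 and 171 CPM with lacZ2, against 279 and 251 with shRictor. The hairpin libraries lay above all lacZ libraries, yet the adjusted p stayed just over 0.05. The log2 fold changes were 0.78 (SE 0.274, adjusted p = 0.0547) and 0.81 (SE 0.274, adjusted p = 0.0554) by edgeR. DESeq2 gave adjusted p = 0.0147 and 0.0126, and limma-voom 0.047 and 0.045. With total-count scaling the log2 fold changes were 0.36 (adjusted p = 0.27) and 0.42 (adjusted p = 0.226). Over all alternatives the adjusted p ranged from 0.0147 to 0.367 and from 0.0123 to 0.264.

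Eif4a1 (chromosome 11, 69666936 to 69672423, minus strand), the other cap-complex helicase, measured 281 and 341 CPM with lacZ1, against 275 and 262 with shDnajb9. It measured 275 and 359 CPM with lacZ2, against 255 and 259 with shRictor. Hairpin libraries were below their own lacZ controls without overlap, but the log2 fold changes of -0.21 (adjusted p = 0.609) and -0.30 (adjusted p = 0.513) did not pass. The ratio of Eif4a2 to Eif4a1 counts within a library was 0.493 and 0.487 for lacZ1 against 0.907 and 1.04 for shDnajb9, and 0.474 and 0.475 for lacZ2 against 1.09 and 0.968 for shRictor. It thus lay within a narrow range in the 4 lacZ libraries and was higher in each of the 4 hairpin libraries. This ratio was singled out among 11 paralog ratios after its values were seen and carries no test. Of the other 10 ratios, only that of Eif4ebp3 to Eif4ebp1 separated all lacZ from all hairpin libraries.

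Reads of both helicase genes can be placed elsewhere. Pseudogenes and small RNA genes share 28.4% of the 50-base stretches of Eif4a1, and other genes share 13.6% of those of Eif4a2. Eif4a2 also overlaps Rfc4 on the opposite strand and small nucleolar RNA genes on its own strand. Rfc4, a clamp loader subunit, was at 1.89 to 3.30 CPM in the hairpin libraries and at 4.19 to 6.29 in the lacZ libraries. Its log2 fold changes were -1.29 (adjusted p = 0.0246) and -0.85 (adjusted p = 0.115). No values of the small nucleolar RNA genes are given here. The part of overlapping reads in the Eif4a2 counts was not tested.

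**Figure D3:**
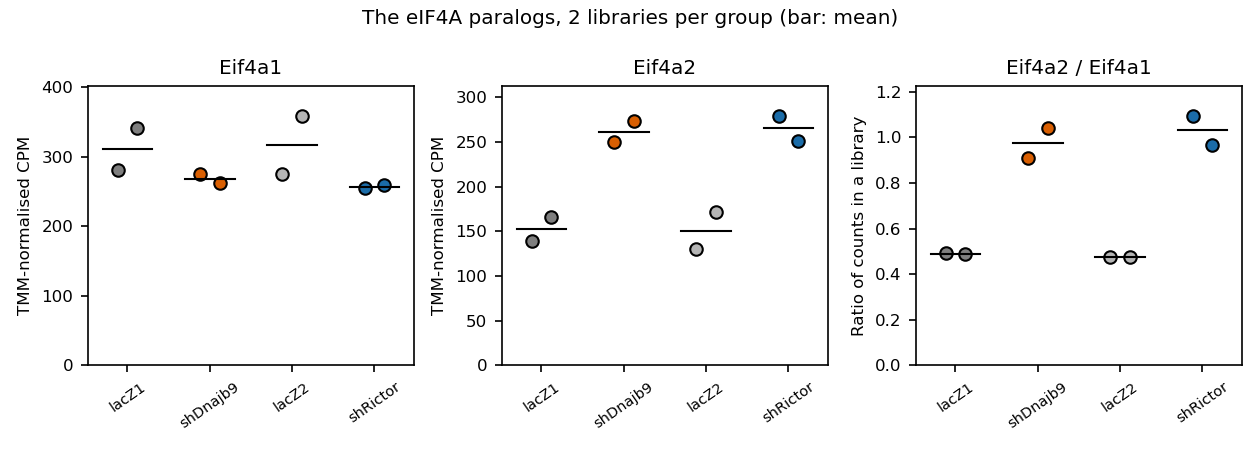
TMM-normalised CPM of Eif4a1 and Eif4a2 and the within-library ratio of their counts, each library as a point and the group mean as a bar, on axes that start at 0. The ratio is 0.474 to 0.493 in the lacZ libraries and 0.907 to 1.09 in the hairpin libraries.

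The promoters of this pair are shown because the genes are paralogs whose count ratio differed between lacZ and hairpin libraries. That ratio was picked after its values were seen and carries no test. Each line gives the 250 bases before the RefSeq start site (GRCm38.p6), 5′ to 3′ on the gene's strand, with capitals marking the E-box CACGTG. Eif4a1 lies at chr11:69672424-69672673 on the minus strand and Eif4a2 at chr16:23107218-23107467 on the plus strand.
Eif4a1: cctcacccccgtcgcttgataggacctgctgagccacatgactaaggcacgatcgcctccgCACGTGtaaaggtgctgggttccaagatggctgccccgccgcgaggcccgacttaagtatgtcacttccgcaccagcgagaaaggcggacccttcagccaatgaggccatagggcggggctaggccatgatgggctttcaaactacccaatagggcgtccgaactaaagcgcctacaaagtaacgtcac
Eif4a2: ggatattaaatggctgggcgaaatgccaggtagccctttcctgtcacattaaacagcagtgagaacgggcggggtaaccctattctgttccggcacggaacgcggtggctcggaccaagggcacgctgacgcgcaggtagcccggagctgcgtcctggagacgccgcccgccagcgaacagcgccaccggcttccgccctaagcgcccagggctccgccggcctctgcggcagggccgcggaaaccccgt
The Eif4a1 window holds 1 CACGTG, which begins 189 bases before the start site, and the Eif4a2 window holds 0. The E-box is the site type of MYC and of related factors. It was found in 11 of the 45 members with a RefSeq promoter (24.4%), on either strand, against 6.86% of 27025 genes. The 27025 are all genes with a RefSeq promoter, tested here or not, so the shares compare unlike sets. Those members were Eef2, Eef2k, Eif1b, Eif3f, Eif3k, Eif4a1, Eif4e, Eif4g1, Eif4h, Eif5a and Eif5a2, none of which was called in either comparison. The ETS-type site CCGGAAGT was in 5 members (11.1%, against 3.23% of genes), Eif3d, Eif3l, Eif4e2, Eif5a and Eif5a2. The FoxO-type GTAAACA was in 1 (2.22% against 3.54%), the C/EBP-ATF-type TGATGNAA in 2 (4.44% against 3.91%), an NRF1-type motif in 1 (2.22% against 0.877%) and a YY1-type motif in 0 (against 0.248%). These 6 motifs were chosen after expression values were known, and a match describes the letters only.

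The other eIF4F genes included the only member that fell. Eif4g3 (chromosome 4, 137993022 to 138208508, plus strand), a paralog of the main scaffold Eif4g1, measured 137 and 78.2 CPM with lacZ1, against 32.3 and 57.9 with shDnajb9. The groups did not overlap, though both were widely spread. The log2 fold change was -1.25 (SE 0.386, adjusted p = 0.0343). It was -0.81 (adjusted p = 0.308) without replicate 1 of lacZ1 and -0.89 (adjusted p = 0.248) without replicate 1 of shDnajb9. After the Rictor hairpin Eif4g3 overlapped with its control, at 100 and 65.9 CPM in lacZ2 and 60.5 and 113 in shRictor (log2 fold change 0.06, adjusted p = 0.929).

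Eif4g1 itself had log2 fold changes of -0.51 (adjusted p = 0.277) and 0.38 (adjusted p = 0.483). Eif4g2, which works in cap-independent initiation, had -0.17 (adjusted p = 0.71) and 0.07 (adjusted p = 0.893). For the cap-binding protein Eif4e the values were 0.06 (adjusted p = 0.87) and -0.18 (adjusted p = 0.651). Eif4e ranged from 38.4 to 59.9 CPM over all 8 libraries. In all, 1 of 11 tested genes of eIF4F and its helpers was called after the Dnajb9 hairpin and 0 after the Rictor hairpin. Of all genes, 24.2% and 18.2% were called. The eIF4F genes and helpers had median log2 fold changes of 0.06 and 0.07.

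The eIF3 scaffold held 2 of the 4 members that rose after the Dnajb9 hairpin. That was 16.7% of its 12 tested subunits, where 11.6% of all genes rose. Eif3m (chromosome 2, 104999656 to 105017080, minus strand) measured 35.5 and 46.1 CPM with lacZ1, against 83.6 and 71.5 with shDnajb9. Eif3i (chromosome 4, 129591960 to 129600648, minus strand) measured 70.4 and 93.5 CPM with lacZ1, against 216 and 130 with shDnajb9. Neither gene overlapped between the groups, and replicate 1 of shDnajb9 was the higher library for both. The log2 fold change was 0.92 for Eif3m (SE 0.24, adjusted p = 0.0159) and 1.08 for Eif3i (SE 0.29, adjusted p = 0.0188). Without replicate 1 of shDnajb9 they were 0.81 (adjusted p = 0.0776) and 0.67 (adjusted p = 0.161), and without replicate 1 of lacZ1 0.72 (adjusted p = 0.2) and 0.85 (adjusted p = 0.201).

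The 12 tested eIF3 subunits had a median log2 fold change of 0.49 after the Dnajb9 hairpin, with values from -0.45 to 1.08, against 0.01 after the Rictor hairpin, with values from -0.18 to 0.45. Eif3h, Eif3g, Eif3k and Eif3e had values from 0.62 to 0.78 in the first comparison, with adjusted p from 0.0787 to 0.0946. In shDnajb9, replicates 1 and 2 had 188 and 126 CPM for Eif3h, 97.9 and 62.2 for Eif3g, and 144 and 72.5 for Eif3k. Eif3e was at 86.8 and 88.1 there. Replicate 1 is the shDnajb9 library that stood apart. The large subunits Eif3a and Eif3c, the backbone of the complex, had -0.15 (adjusted p = 0.729) and -0.45 (adjusted p = 0.273). In shRictor, Eif3m was at 47.3 and 36.2 CPM against 43.6 and 46.3 in lacZ2, which overlapped (log2 fold change -0.11, adjusted p = 0.803). Eif3i was at 115 and 93.8 CPM there against 73.9 and 85.7 (log2 fold change 0.38, adjusted p = 0.4). The difference between the hairpin effects on Eif3m was -1.03, with an unadjusted p of 0.00919 and an adjusted p of 0.408.

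Over all members, no difference between the hairpin effects passed the test by edgeR, DESeq2 or limma-voom. Of all genes tested, 1 did by edgeR (0.00726%), and 0.327% of genes did by DESeq2. By edgeR 3 members (5.45%, against 10.9% of all genes) had an unadjusted p under 0.05 for it, Eif3m, Eif4ebp2 and Eif4g3. A call after one hairpin and not after the other is therefore not shown to be a difference between them.

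**Figure D4:**
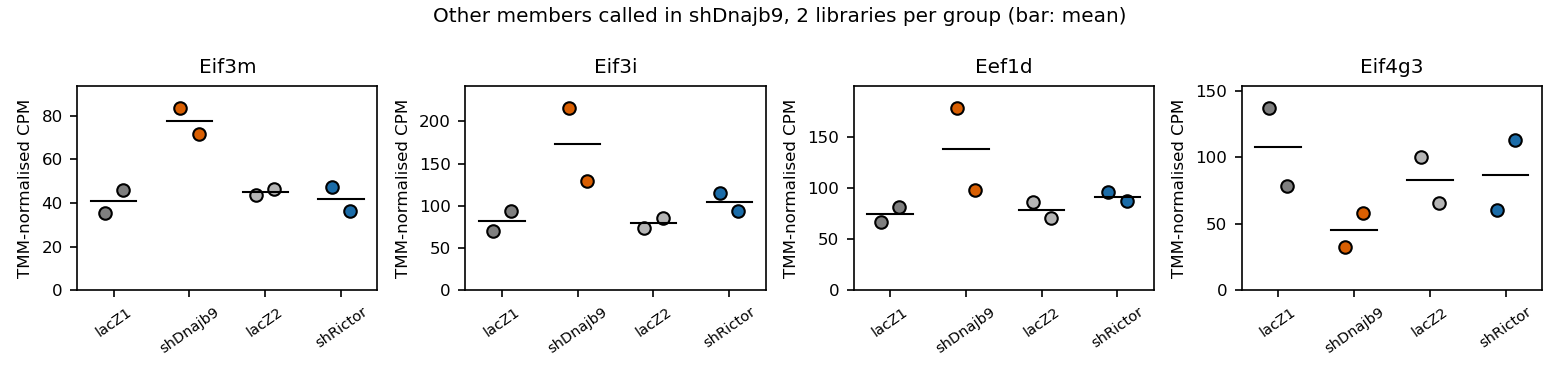
TMM-normalised CPM of Eif3m, Eif3i, Eef1d and Eif4g3 in each library (points) with the group mean (bar), on axes that start at 0. In shDnajb9 the first 3 genes lie above lacZ1, with replicate 1 of shDnajb9 highest, and Eif4g3 lies below lacZ1.

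Start site selection and the supply of initiator tRNA showed no call. None of 6 scanning factors, 6 genes of eIF2 and its stand-ins, and 5 genes of the exchange factor eIF2B passed in either comparison. The shares that passed were 24.2% and 18.2% of all genes, and 9.09% and 3.64% of all tested members. These roles had median log2 fold changes of 0.26, 0.24 and 0.14 after the Dnajb9 hairpin and -0.11, 0.01 and 0.00 after the Rictor hairpin. Eif1, which guards start codon choice, came closest after the Rictor hairpin, at 75.0 and 47.6 CPM in lacZ2 and 87.0 and 106 in shRictor (log2 fold change 0.66, adjusted p = 0.0993). Eif5, which triggers GTP hydrolysis on eIF2, had 0.46 (adjusted p = 0.246) and 0.47 (adjusted p = 0.285).

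Eif2s1, the eIF2 subunit that stress kinases phosphorylate, measured 58.3 and 69.4 CPM with lacZ1, against 54.7 and 54.0 with shDnajb9. It measured 55.4 and 65.8 CPM with lacZ2, against 49.3 and 39.3 with shRictor. Hairpin libraries were below their controls in both without passing (log2 fold change -0.23, adjusted p = 0.475, and -0.45, adjusted p = 0.197). Eif2b5, the catalytic subunit of eIF2B, had 0.14 (adjusted p = 0.66) and 0.16 (adjusted p = 0.671). The X- and Y-linked copies of the third eIF2 subunit, Eif2s3x and Eif2s3y, were both present in all 8 libraries, with Eif2s3y at 34.9 to 62.3 CPM. Their log2 fold changes were 0.17 (adjusted p = 0.639) and 0.53 (adjusted p = 0.105) after the Dnajb9 hairpin, and 0.13 (adjusted p = 0.768) and 0.16 (adjusted p = 0.675) after the Rictor hairpin.

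The late initiation factors also lacked a call. Eif6, which keeps the large subunit from joining too early, was at 162 CPM in both lacZ2 libraries and at 118 and 107 in shRictor. That separation gave -0.52 on the log2 scale (adjusted p = 0.182), and in the other comparison it was -0.21 (adjusted p = 0.567). Eif5b, which promotes subunit joining, had -0.09 (adjusted p = 0.798) and 0.08 (adjusted p = 0.841).

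In elongation, the eEF1B subunit Eef1d was the only call. Eef1d (chromosome 15, 75894205 to 75909556, minus strand), which helps recharge eEF1A with GTP, measured 66.3 and 81.7 CPM with lacZ1, against 178 and 97.5 with shDnajb9. The groups did not overlap, and replicate 1 of shDnajb9 stood far above replicate 2. The log2 fold change was 0.90 (SE 0.292, adjusted p = 0.0413), and it was 0.40 (adjusted p = 0.375) without that library. The call was lost in 11 of 19 alternatives. The 4 eEF1B genes and partners had a median of 0.50 after the Dnajb9 hairpin and -0.12 after the Rictor hairpin, where Eef1d had 0.22 (adjusted p = 0.661). Eef1b2, the other exchange subunit, had 0.61 (adjusted p = 0.104) and -0.05 (adjusted p = 0.912).

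The most abundant members were higher in every hairpin library than in any lacZ library on the TMM scale, without passing the test. Eef1a1 (chromosome 9, 78478449 to 78489151, minus strand) measured 2790 and 3640 CPM with lacZ1, against 4350 and 4470 with shDnajb9. With lacZ2 it measured 2620 and 3570, against 4630 and 4030 with shRictor. The log2 fold changes were 0.46 (SE 0.41, adjusted p = 0.429) and 0.48 (adjusted p = 0.463). With total-count scaling those values were 0.04 and 0.09. Of its 50-base stretches, 40.4% also occur in other genes. Eef2 (chromosome 10, 81176631 to 81182498, plus strand) measured 1730 and 1720 CPM with lacZ1, against 2060 and 1990 with shDnajb9. With lacZ2 it measured 1520 and 1980, against 2510 and 2760 with shRictor. It did not overlap between the groups either, and its log2 fold changes were 0.23 (adjusted p = 0.669, -0.20 with total-count scaling) and 0.59 (adjusted p = 0.305, 0.19 with total-count scaling).

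Eef2k, the kinase that inactivates eEF2, had -0.01 (adjusted p = 0.991) and 0.60 (adjusted p = 0.188). Eif5a, which relieves stalled ribosomes, had 0.62 (adjusted p = 0.161) and 0.24 (adjusted p = 0.651). Its rarer paralog Eif5a2 was at 0.838 to 2.66 CPM in all, with wide intervals.

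Longer members tended to lower values after the Dnajb9 hairpin. Across the 55 tested members, the log2 fold change correlated with the log2 exonic length at Pearson's r = -0.40 (Spearman's rho -0.30), against -0.18 (rho -0.23) across 13647 genes. After the Rictor hairpin the members gave -0.16 (rho 0.03), against 0.03 (rho 0.04). These are descriptions across genes of the same libraries, and genes are not independent replicates. Eif4g3, the member that fell, is the longest of the named ones at 11063 exonic bases, and Eif4ebp3 is the shortest. With offsets for length and GC content, Eif4g3 had a log2 fold change of -0.69 (adjusted p = 0.062), and 7 members rose in place of 4.

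**Figure D5:**
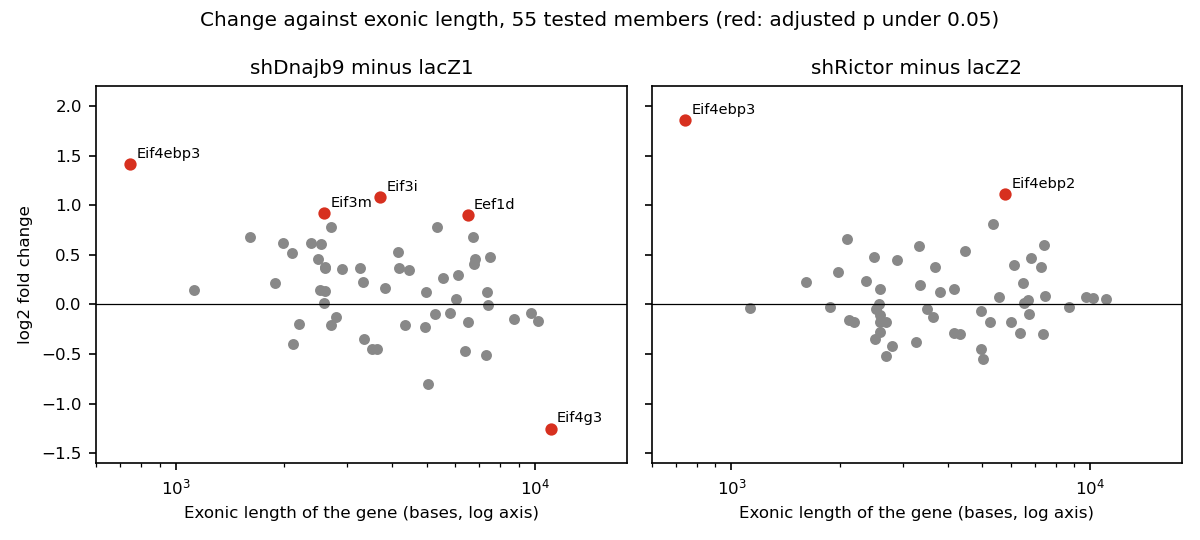
Log2 fold change of the 55 tested members (points) against their exonic length in bases on a log axis, left for shDnajb9 minus lacZ1 and right for shRictor minus lacZ2, with called genes in red and named. On the left the points tend downward with length (r = -0.40), from Eif4ebp3 at 744 bases to Eif4g3 at 11063. On the right Pearson's r is -0.16 and Spearman's rho 0.03.

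Regulators that act on these factors were described from lists. Pdcd4, which blocks the eIF4A helicase, rose after both hairpins. It measured 37.9 and 28.0 CPM with lacZ1, against 81.8 and 68.0 with shDnajb9. With lacZ2 it measured 30.1 and 34.5, against 76.1 and 69.5 with shRictor. All hairpin libraries were above all lacZ libraries. The log2 fold changes were 1.18 (SE 0.239, adjusted p = 0.00449) and 1.17 (SE 0.238, adjusted p = 0.00494). Leaving out replicate 2 of lacZ1 gave an adjusted p of 0.0544 in the first, and leaving out replicate 1 of lacZ2 gave 0.0548 in the second.

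Of 15 genes of mTOR complex 1 and of kinases and partners of translation factors, 2 rose and 2 fell after the Dnajb9 hairpin, and 2 rose after the Rictor hairpin. These shares, 26.7% and 13.3%, lay near those of all genes, 24.2% and 18.2%. Deptor, an inhibitor of mTOR, measured 69.0 and 90.8 CPM with lacZ2, against 347 in both shRictor libraries. The groups were far apart, and the log2 fold change was 2.12 (SE 0.285, adjusted p = 0.000414). After the Dnajb9 hairpin Deptor had 0.83 (adjusted p = 0.0442), a call lost in 9 of 19 alternatives. The kinase Mtor had -1.78 (adjusted p = 0.0174) and its partner Mlst8 -1.54 (adjusted p = 0.00621) in that comparison. The Mtor call was lost in 3 of 19 alternatives (adjusted p up to 0.185): without replicate 1 of lacZ1, without replicate 1 of shDnajb9, and without both libraries that stood apart. The Mlst8 call was kept in all 19.

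Of 8 genes of the eIF2 kinases, their regulators and the eIF2 phosphatase, none was called after the Dnajb9 hairpin, and 1 rose and 1 fell after the Rictor hairpin (against 24.2% and 18.2% of all genes called). Impact, an inhibitor of the amino acid sensor GCN2, measured 33.6 and 33.7 CPM with lacZ2, against 17.8 and 15.2 with shRictor. It fell by 1.03 on the log2 scale (SE 0.227, adjusted p = 0.00762), with no overlap, and the call was lost without replicate 2 of shRictor (adjusted p = 0.0816). Ppp1r15b, a subunit of the eIF2 phosphatase, measured 125 and 105 CPM with lacZ2, against 206 and 208 with shRictor. Its log2 fold change was 0.85 (adjusted p = 0.0304), and the call was lost in 8 of 19 alternatives.

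Of 6 poly(A)-binding proteins and partners, 2 rose after the Dnajb9 hairpin and 0 after the Rictor hairpin, where 11.6% and 7.31% of all genes rose. Paip1, which stimulates translation, had 0.79 (adjusted p = 0.0306) and Paip2b, which inhibits it, 0.71 (adjusted p = 0.0434). The calls were lost in 6 and 12 of 19 alternatives. The members that moved thus have opposite known roles.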

How the data were processed

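Each library came as 1 deposited table of raw counts, with gene symbols as row names. Per the submitters' processing notes, the authors used cutadapt, HTSeq and mouse build mm10. The aligner, the versions, the annotation and the strand setting are not given in the sources used here, so reads of antisense or overlapping genes can be included. Classes of reads that HTSeq left unassigned stayed out of totals and tests, and 27 entries carry a date in place of a symbol. Replicate libraries differed beyond counting error in every group (chi-square per degree of freedom 18.2 to 52.0).

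Counts were tested in R 4.3.3 with edgeR 4.0.16 (filterByExpr with a minimum count of 10, TMM, robust quasi-likelihood F test, 4 group means over 8 libraries, 4 residual degrees of freedom). This left 13767 genes tested and 10295 not tested. Calls needed an adjusted p under 0.05 (Benjamini-Hochberg over all genes tested). The comparisons were shDnajb9 minus lacZ1, shRictor minus lacZ2, their difference, and lacZ2 minus lacZ1. The script was tested on simulated data. The median SE of a member's log2 fold change was 0.261 and 0.262 in the hairpin comparisons.

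Named members are those called and a panel of paralogs and regulated factors. Members that came near the threshold, ratios, motifs and E-box members were named after their values were seen. The members and lists were chosen with earlier results of these data known. Alternatives were RLE size factors, total counts, no filter, a filter of 2 CPM in 2 libraries, DESeq2 1.42.0, limma-voom (limma 3.58.1), only the 4 libraries compared, a replicate block, length and GC offsets, an adjusted p under 0.1, leaving out each library in turn, and leaving out both libraries that stood apart. A crossed block was added after the data were seen. Gene models were GENCODE M21 (98.2% of entries matched) and promoters RefSeq GRCm38.p6.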

Additional observations from a re-analysis of the deposited data

How the results depend on the processing

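Groups of 2 libraries limit every result, and no fold change of a called member changed sign. After the Dnajb9 hairpin, 4 members rose and 1 fell. The counts were 1 and 7 with total counts, 7 and 0 with length and GC offsets, 1 and 0 without both libraries that stood apart (28.8%, 29.4% and 12% of all genes called, against 24.2%), and 9 rose at an adjusted p under 0.1. Leaving out 1 library at a time gave 1 to 8 that rose and 0 to 1 that fell; the low count came without replicate 1 of lacZ1 or of shDnajb9 and the high one without replicate 2 of shDnajb9. After the Rictor hairpin, 2 members rose and 0 fell. The counts were 1 and 5 with total counts (23.6% of all genes, against 18.2%). With length and GC offsets 4 rose (25.4% of all genes). With only the 4 libraries compared 1 rose (20.1% of all genes). At an adjusted p under 0.1, 4 rose. A looser threshold can only add calls, and the share of all genes at that threshold is not given here for either hairpin. Leaving out 1 library at a time gave 1 to 3 that rose and 0 to 1 that fell; 1 rose without either lacZ1 library, without replicate 2 of lacZ2 or without replicate 2 of shRictor. Each fit without a library leaves 1 library in a group, and the share of all genes called after the Rictor hairpin moved as well. That share was lower than in the main fit when any lacZ or shRictor library was left out. It was also lower without both libraries that stood apart, and higher without either shDnajb9 library. The member counts of these fits are therefore not specific to the members. With no filter 1 member fell after the Rictor hairpin, Eef1a2, on the counts of replicate 1 of lacZ2. For the total-count scaling and the offsets the cause was not tested. In the difference of the hairpin effects and between the controls, 0 members were called in every alternative run. Among named members that were not called, the sign changed in 23 of 418 values, 19 of 399, 36 of 414 and 69 of 437, for the Dnajb9, Rictor, difference and control comparisons.

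Libraries of the same replicate number did not deviate alike from their group means (correlation of deviations across genes -0.3 and -0.03). With 2 libraries per group, this cannot tell whether they were paired. With the replicate block, 2 members rose and 0 fell after the Dnajb9 hairpin and 1 rose after the Rictor hairpin. That block called 15.9% and 12.9% of all genes. The crossed pairing, chosen after seeing the data, gave 7 that rose and 1 that fell after the Dnajb9 hairpin. It called 32.9% of all genes there, against 24.2% in the main fit.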

Other observations

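Selenocysteine insertion, in which a UGA codon is read as an amino acid by a dedicated elongation factor, was among the lists of neighbouring processes. Of its 6 genes, 2 rose after each hairpin, where 11.6% and 7.31% of all genes rose. Sephs2, which makes the selenium donor, was at 414 and 487 CPM in lacZ1 and 2400 and 1400 in shDnajb9, and at 337 and 472 in lacZ2 and 1560 and 989 in shRictor. All hairpin libraries were above all lacZ libraries. The log2 fold changes were 2.07 (adjusted p = 0.004) and 1.65 (adjusted p = 0.0141) by edgeR. The first call was lost without replicate 1 of lacZ1 (adjusted p = 0.066), and the second without replicate 1 of lacZ2 or replicate 1 of shRictor (adjusted p up to 0.125). Pstk, a kinase of the selenocysteine tRNA, had 1.06 (adjusted p = 0.0302, lost in 7 of 19 alternatives) after the Dnajb9 hairpin. Sepsecs, the enzyme that finishes that aminoacyl-tRNA, had 0.78 (adjusted p = 0.0456, lost in 9 of 19 alternatives) after the Rictor hairpin.

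No gene was called in either hairpin comparison among 10 mitochondrial translation factors and 10 other initiation factors and helicases. Nor was any of 9 genes that modify eIF5A or eEF2, or of 5 termination and recycling genes. Of all genes tested, 24.2% and 18.2% were called after the Dnajb9 and Rictor hairpins. In the order named, these lists had median log2 fold changes of 0.34, 0.16, 0.38 and 0.01 after the Dnajb9 hairpin. After the Rictor hairpin the medians were 0.45, -0.11, 0.08 and -0.18.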
